A study of Mus musculus with 2 samples.

Results

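The genes described here encode subunits of the voltage-gated sodium channel in mouse brain. Members were the rows of the deposited gene list whose symbol is 1 of 7 names: the pore-forming alpha subunits Scn1a, Scn2a, Scn3a and Scn8a, and the auxiliary beta subunits Scn2b, Scn3b and Scn4b. All 7 were found, of 32285 genes listed. RNA was counted with 10x Visium, which captures polyadenylated transcripts on a slide of barcoded spots, in 2 sections of brain from wild-type C57BL/6 mice, both labelled ZT12. Fresh frozen tissue was cut at 10 µm. No mouse age, no treatment and no allele other than wild type is named in the labels. They do not say whether the sections came from separate animals, so every p-value below rests on 2 sections whose differences may be technical. With section as a block in the fit, the p-values measure how unevenly groups differed between the sections, not the difference that all groups shared.

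Sodium channels open on depolarisation and carry the rising phase of the action potential. Each channel is built around an alpha subunit, which holds the voltage sensors, the pore and the inactivation gate, and beta subunits, small membrane proteins with an extracellular immunoglobulin-like domain that alter gating and surface level. Scn2b and Scn4b proteins are bound to the alpha subunit by a disulfide bond, and Scn3b protein is not. The channels are packed at the axon initial segment and, in myelinated axons, at the nodes of Ranvier.

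Most of the genes lie in clusters. On the GRCm38.p6 assembly Scn3a occupies chr2:65457118-65567591, Scn2a chr2:65620764-65767447 and Scn1a chr2:66270781-66440837, while Scn8a lies at chr15:100869863-101045938. Scn3b lies at chr9:40269216-40291618, and Scn2b at chr9:45117876-45130070 is separated by 8553 bases from Scn4b at chr9:45138624-45154155. The 250 bases upstream of the annotated starts of Scn2b and Scn4b are shown because they are adjacent genes for beta subunits, of which Scn4b stood far above its other levels in striatum. Those of Scn1a and of a start inside the annotated span of Scn2a, which share the chromosome 2 cluster, are shown because these alpha subunits were called in opposite directions in thalamus and in layer 6 of the isocortex. Sequences are from RefSeq (GRCm38.p6), 5′ to 3′ on the gene's strand, at chr9:45117626-45117875 (plus) for Scn2b, chr9:45138374-45138623 (plus) for Scn4b, chr2:66440838-66441087 (minus) for Scn1a and chr2:65668436-65668685 (plus) for Scn2a. Capitals mark each CG dinucleotide and the letters TATAAA.
Scn2b: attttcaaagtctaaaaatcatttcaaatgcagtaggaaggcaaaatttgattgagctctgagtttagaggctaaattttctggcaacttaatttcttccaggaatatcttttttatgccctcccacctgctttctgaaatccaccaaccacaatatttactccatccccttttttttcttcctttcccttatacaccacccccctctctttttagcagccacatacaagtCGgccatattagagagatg
Scn4b: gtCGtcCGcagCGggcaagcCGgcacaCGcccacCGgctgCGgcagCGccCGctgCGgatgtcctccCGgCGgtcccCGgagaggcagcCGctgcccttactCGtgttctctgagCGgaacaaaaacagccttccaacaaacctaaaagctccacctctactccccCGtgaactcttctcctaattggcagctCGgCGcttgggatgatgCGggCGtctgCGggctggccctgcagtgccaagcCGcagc
Scn1a: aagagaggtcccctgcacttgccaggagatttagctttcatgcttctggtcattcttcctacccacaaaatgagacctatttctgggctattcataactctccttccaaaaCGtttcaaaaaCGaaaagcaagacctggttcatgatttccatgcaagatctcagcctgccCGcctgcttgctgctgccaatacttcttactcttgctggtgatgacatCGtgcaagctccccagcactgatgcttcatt
Scn2a: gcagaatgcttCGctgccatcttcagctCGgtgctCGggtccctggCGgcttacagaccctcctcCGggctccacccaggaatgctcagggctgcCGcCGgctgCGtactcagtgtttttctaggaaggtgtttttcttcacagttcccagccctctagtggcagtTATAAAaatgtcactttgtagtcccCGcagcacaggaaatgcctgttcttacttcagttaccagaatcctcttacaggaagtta
The Scn4b window held 23 CG dinucleotides and 66.0% G or C, and the Scn2b window 1 and 38.4%. The Scn1a window held 4 and 46.8%, and the Scn2a window at the internal start 9 and 53.2%. A further window, at the annotated gene start of Scn2a (chr2:65620519-65620768), held 2 CG dinucleotides, 29.6% G or C and no TATAAA. Across 32851 such windows the median was 6 CG dinucleotides and 52.4% G or C. The letters TATAAA, searched on both strands, stood once in the internal Scn2a window and are present in 12.4% of all windows of this length. The letters GGGCGG, searched the same way, were in none of the 4 printed windows and are in 32.7% of all windows. Of the 7 members, 5 had windows in the table.

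Spots with at least 500 UMIs (unique molecular identifiers, each marking 1 captured transcript) were kept: 3030 of 3167 spots in section 1 and 2531 of 2533 in section 2. The kept spots held 58643229 and 55850965 UMIs, with medians of 18127 and 21555 UMIs per spot. The sections shared 1965 barcodes, which name positions on the slide and not cells. A spot covers a small area of tissue that can hold several cells, so less RNA per cell and fewer cells of a type cannot be told apart in any value below. The file header names Space Ranger 1.2.2 for section 1 and 2.0.1 for section 2, so software version and section cannot be told apart.

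Over whole sections Scn2b gave the most UMIs of the members, 213 CPM in section 1 and 241 CPM in section 2 (CPM are a gene's UMIs per 1000000 UMIs of the section or group), and was seen in 90.5% and 96.0% of kept spots. Scn8a stood at 130 and 135 CPM and Scn2a at 114 and 106. Scn3b had 71.4 and 91.7, Scn4b 34.4 and 41.9, and Scn3a 22.8 and 24.3 CPM. These are counts of tags from transcript 3′ ends, so a share of them compares groups of spots, not numbers of subunit molecules. Scn1a had 35.6 CPM in section 1 and 18.4 in section 2, a 1.93-fold difference that ran the same way in 14 of 14 groups of spots. Among 11606 genes with enough UMIs, 2.16% were at least 1.5-fold higher in section 1. Scn3b ran the other way, 1.28-fold higher in section 2 and higher there in 13 of 14 groups. The part of the Space Ranger version in these differences was not tested.

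Spots were grouped by 19 lists of anatomical marker genes that hold no member. Of 5561 kept spots, 3640 scored clearly highest for 1 list and 1921 were not grouped. The UMIs of each group were summed per section, and 1 fit took the 14 groups that held 30 or more spots on both sections. They comprised layer 5 and layer 6 of the isocortex, dentate gyrus, hippocampal CA1 and CA3, thalamus, striatum, fibre tracts, choroid plexus, ependyma, meninges and 3 groups that are called by their leading genes and not by the region of their list, a choice made after their values were seen. These 3 are the Oprk1 and Nr4a2 group, the Tac2 and Pou4f1 group and the Cdhr1 and Sp8 group. Sums held 338814 to 5782303 UMIs, the smallest being striatum in section 1, with 37 spots against 211 in section 2.

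All 7 members differed among the groups (edgeR quasi-likelihood test, Benjamini-Hochberg adjusted over 12666 genes). The background for this test was high, at 58.4% of all genes. The smallest adjusted p was 1.42e-19 for Scn4b, followed by 1.05e-18 for Scn3b, 1.30e-12 for Scn2a, 5.24e-11 for Scn2b, 1.14e-08 for Scn3a, 3.28e-07 for Scn8a and 0.00118 for Scn1a. Compared with the average of the remaining 13 groups, members passed in 37 of 98 comparisons, 16 higher and 21 lower. Over all genes 7.65% of such comparisons passed as higher and 5.55% as lower.

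In thalamus 4 members were higher, where 12.5% of all genes passed as higher, and 3 lower (11.8%). Striatum had 3 higher (background 5.43%). CA1 had 3 higher (6.86%) and 1 lower (4.71%), dentate gyrus 2 higher (11.8%) and 1 lower (11%), and CA3 2 higher (6.95%). Layer 5 had 1 higher (6.21%), and layer 6 had 1 higher (9.77%) and 2 lower (8.16%). In fibre tracts 5 members were lower (13.9%), in choroid plexus 4 (4.53%), in meninges 4 (9.37%) and in ependyma 1 (1.63%). No member passed in the Oprk1 and Nr4a2 group, the Tac2 and Pou4f1 group or the Cdhr1 and Sp8 group, where 0.45%, 0.821% and 0.695% of all genes passed in either direction.

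**Figure D1:**
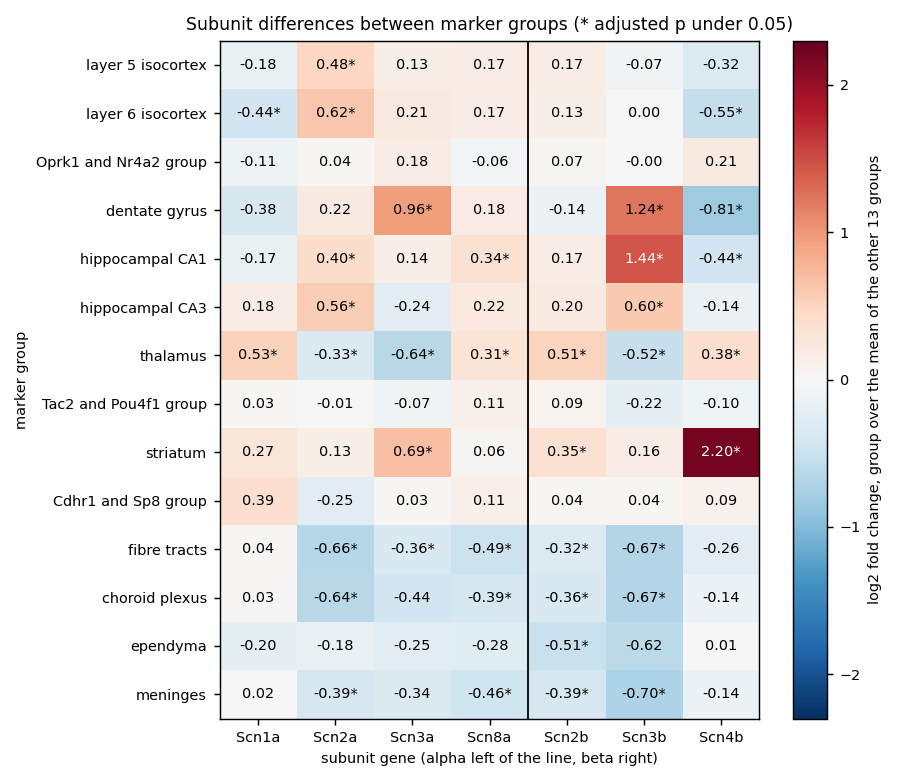
Log2 fold change of each subunit gene in each marker group over the mean of the other 13 groups, as colour and number, with an asterisk where the adjusted p is under 0.05 (2 sections per group). The highest value is Scn4b in striatum at 2.20, followed by Scn3b in CA1 at 1.44 and in dentate gyrus at 1.24, and the lowest is Scn4b in dentate gyrus at -0.81.

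These values are relative to all UMIs of a group. Scaling each sum to a list of 10 pan-neuronal genes instead moved the median of all genes by -0.64 to 0.42 on the log2 scale across the comparisons, since those genes themselves differed between groups. Their summed level was 8497 and 8492 CPM in thalamus and 9339 and 9091 in CA3, and 4589 and 5163 in fibre tracts. Directions that turned and calls that were lost under that scaling are named with each result.

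Among the alpha subunits Scn2a, a main channel of excitatory neurons, had its highest means of the 14 tested groups in deep cortex and hippocampus. It had 176 and 146 CPM in layer 6, 159 and 132 in layer 5, 163 and 144 in CA3 and 142 and 135 in CA1, against 67.5 and 61.5 in fibre tracts. Superficial isocortex, which was too small for this fit, had 171 and 127 CPM, so the high level was not particular to deep layers. The layer 6 values were the highest of the 14 groups in both sections. Scn2a was 1.53-fold higher in layer 6 than in the other groups (log2 0.62 ± 0.08 SE, adjusted p 4.09e-08, edgeR), 1.48-fold higher in CA3, 1.39-fold in layer 5 and 1.32-fold in CA1. Under pan-neuronal scaling it was not called in CA3 (log2 0.09) or in layer 5 (log2 0.19). In layer 5 it was not called with the section 1 sum left out (log2 0.39), and in CA1 not without section as a block (log2 0.41). Thalamus had 88.5 and 79.5 CPM of Scn2a and was lower (log2 -0.33 ± 0.08, adjusted p 0.00169, edgeR), a call that was lost when either thalamic sum was left out (log2 -0.33 without section 1 and -0.29 without section 2). That call was also lost without section as a block. In striatum the sections disagreed, at 165 and 100.7 CPM, and no call was made.

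Scn1a, known for its role in parvalbumin interneurons, was higher in thalamus. Thalamus had 49.6 CPM in section 1, the highest there, and 22.6 in section 2, where meninges at 25.9, CA3 at 24.0 and the Cdhr1 and Sp8 group at 22.9 stood above it. Against the other groups it was 1.44-fold higher in thalamus with section as a block (log2 0.53 ± 0.11, adjusted p 1.95e-04, edgeR), and was not called without the block (adjusted p 0.237), without the section 1 sum (log2 0.37) or under pan-neuronal scaling (log2 0.14). In layer 6 Scn1a had 26.3 and 13.4 CPM and was lower (log2 -0.44 ± 0.14, adjusted p 0.0243, edgeR). That call was lost without the block and when either layer 6 sum was left out (log2 -0.48 without section 1 and -0.41 without section 2). For Scn1a all 13 pairs of neighbouring groups in the order of mean levels overlapped between sections.

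Scn3a, which is best known from the developing brain, was highest in dentate gyrus, with 44.8 and 41.1 CPM, above every other group in both sections. Striatum followed with 29.5 and 33.5 CPM, and thalamus had 15.6 and 13.6. Scn3a was 1.95-fold higher in dentate gyrus (log2 0.96 ± 0.12, adjusted p 2.45e-08, edgeR) and 1.62-fold higher in striatum, where only 10 UMIs were counted in section 1. The striatal call was lost without the section 2 sum (log2 0.26). Scn3a was lower in thalamus (log2 -0.64 ± 0.13, adjusted p 9.14e-05, edgeR).

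Scn8a, the alpha subunit that predominates at mature axon initial segments and nodes, showed no separation between neighbours in the order of mean levels, as all 13 pairs overlapped between sections. It ranged from 81.1 CPM in fibre tracts of section 1 to 170 in CA1 of section 1. CA1 had 170 and 155 CPM and was 1.27-fold higher than the other groups (log2 0.34 ± 0.09, adjusted p 0.00583, edgeR), though not without its section 1 sum (log2 0.21) or the block (adjusted p 0.152). Thalamus had 146 and 163 CPM and was higher (log2 0.31 ± 0.08, adjusted p 0.00153, edgeR), and this direction turned under pan-neuronal scaling (log2 -0.07). The thalamic call was also lost without the block.

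**Figure D2:**
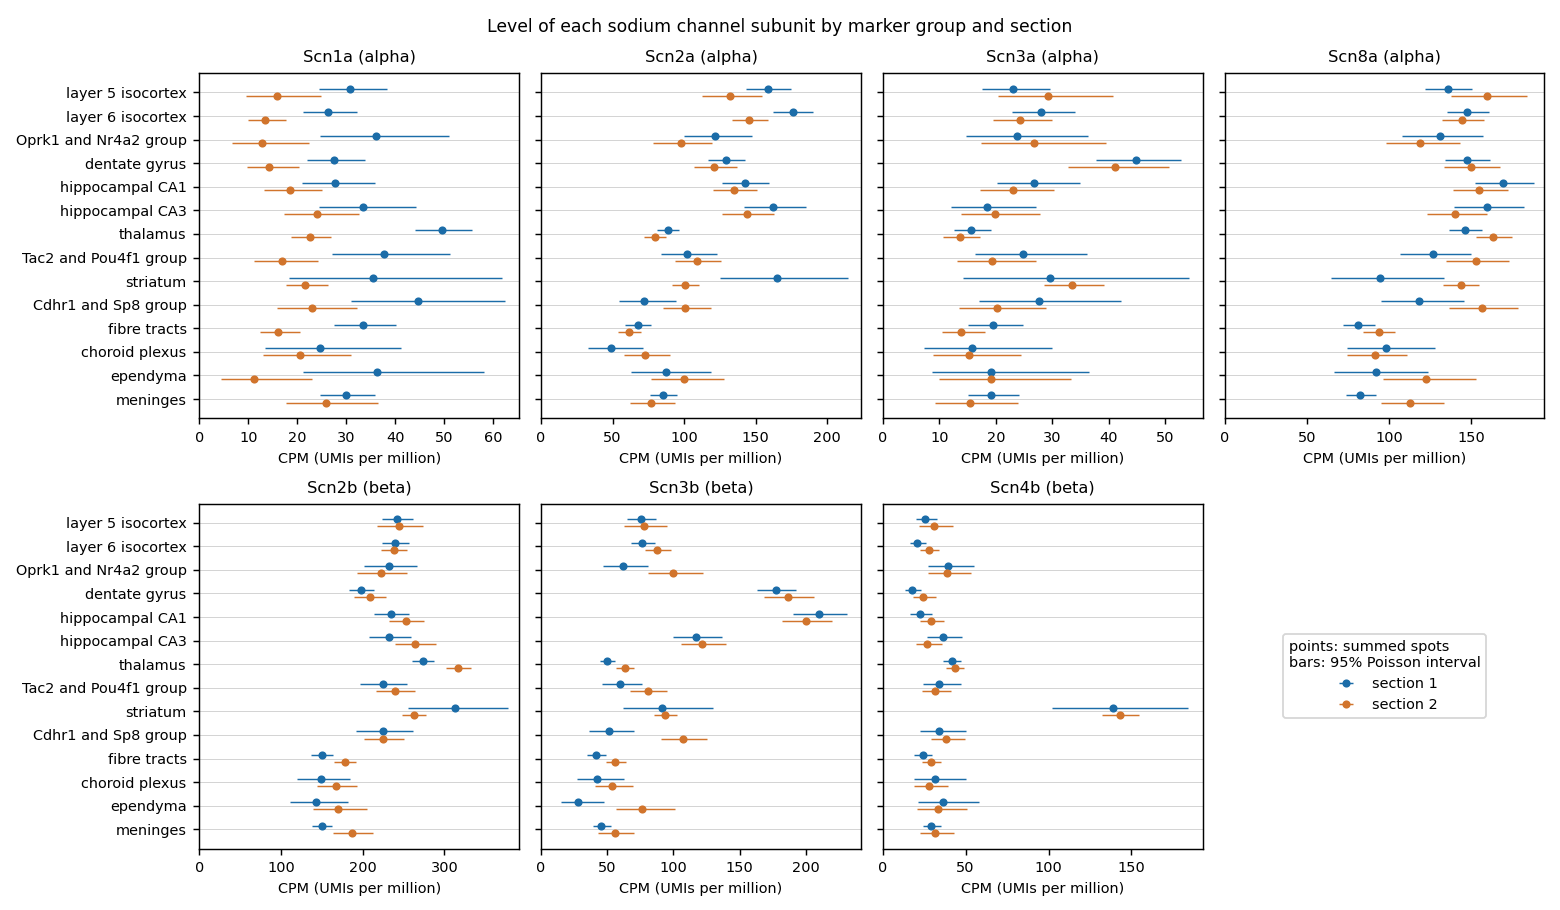
Level in CPM of each subunit gene in the summed spots of 14 marker groups, with points for section 1 (blue) and section 2 (orange) and bars for the 95% Poisson interval, which covers counting error only. Scn4b in striatum (139 and 143) and Scn3b in CA1 (210 and 200) lie apart from most groups, and Scn1a is higher in section 1 in every group.

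Among the beta subunits Scn4b, tied to resurgent sodium current, was the most regional. Striatum had 139 CPM in section 1 and 143 in section 2, and no other tested group passed 43.3. The striatal level was 4.61-fold that of the other groups (log2 2.20 ± 0.10, adjusted p 8.66e-23, edgeR). The call held under each of the 13 alternatives that could test the striatum, with log2 values of 1.86 to 2.27. Thalamus was next, with 41.5 and 43.3 CPM, and was called higher (log2 0.38 ± 0.09, adjusted p 0.00154, edgeR), but the value was 0.00 on the log2 scale under pan-neuronal scaling and the call was lost without the section 1 sum (log2 0.36). Dentate gyrus was lowest in both sections, at 17.7 and 24.4 CPM (log2 -0.81 ± 0.14, adjusted p 1.36e-05, edgeR). Layer 6 had 20.7 and 27.6 CPM and was lower by 0.55 on the log2 scale, which was not called without the section 1 sum (log2 -0.40). CA1 had 22.4 and 28.9 and was lower by 0.44, a call lost when either sum was left out (log2 -0.33 without section 1 and -0.56 without section 2).

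Scn3b, whose product modulates gating without a disulfide link, had its highest levels of the 14 tested groups in the hippocampal formation. CA1 had 210 and 200 CPM, dentate gyrus 177 and 187 and CA3 117 and 122, whereas no other tested group passed 107.1. Superficial isocortex, too small for this fit, had 81.0 and 119 CPM, so CA3 did not stand apart from it in both sections. Scn3b was 2.72-fold higher in CA1 (log2 1.44 ± 0.09, adjusted p 1.68e-16, edgeR), 2.36-fold higher in dentate gyrus (log2 1.24 ± 0.09, adjusted p 4.42e-15, edgeR) and 1.52-fold higher in CA3 (log2 0.60 ± 0.11, adjusted p 1.64e-04, edgeR). The CA1 and dentate calls held under each of the 14 alternatives that could test them, and the CA3 value was 0.14 under pan-neuronal scaling, where it was not called. The CA3 call was also lost without the block. CA1 was also uneven within itself: in spots thinned to 10000 UMIs the variance of the Scn3b count was 2.32 times its mean in section 1 and 1.73 times in section 2, against 1.21 and 1.10 in dentate gyrus. Thalamus had 49.8 and 63.4 CPM and was lower (log2 -0.52 ± 0.10, adjusted p 5.64e-05, edgeR), a call lost without the block.

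Scn2b, which raises the surface level of channels, gave the most UMIs of the members in all 14 groups. Thalamus had 274 and 317 CPM and striatum 313 and 263, while ependyma had 143 and 170. The lowest thalamic value was above all values of the other groups except striatum in section 1. Scn2b was 1.42-fold higher in thalamus (log2 0.51 ± 0.06, adjusted p 2.44e-09, edgeR), where it was not called under pan-neuronal scaling (log2 0.13). It was 1.28-fold higher in striatum (log2 0.35 ± 0.08, adjusted p 9.35e-04, edgeR), a call lost without the section 2 sum (log2 0.51).

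The neighbours Scn2b and Scn4b were thus both called higher in thalamus and striatum, by different amounts in striatum. Both thalamic calls were lost under pan-neuronal scaling, and the striatal call of Scn2b was lost without the section 2 sum. In dentate gyrus Scn4b was lower while Scn2b, at 198 and 209 CPM, was not called (log2 -0.14). Scn1a and Scn2a of the chromosome 2 cluster were called in opposite directions in thalamus and in layer 6, with the limits given above.

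The balance was described as the beta share: UMIs of Scn2b, Scn3b and Scn4b as a percent of the UMIs of the 7 members. It was 51.4% over section 1 and 56.9% over section 2. The sections held unlike numbers of spots per group, such as 37 and 211 for striatum and 125 and 1 for cerebellar cortex. The part of this in the whole-section shares was not tested. Within groups the share was higher in section 2 in 13 of 14. Striatum had the highest share in both sections, 62.6% (exact binomial 95% interval 56.8 to 68.1) and 62.5% (61.0 to 64.1). The lowest means were in layer 6, at 47.1% (45.2 to 49.1) and 51.9% (49.9 to 53.9), and in ependyma, at 46.9% and 52.5%. CA1 had 56.0% and 59.3%, thalamus 54.9% and 60.3%, dentate gyrus 53.0% and 56.2%, CA3 50.7% and 55.7%, and layer 5 49.6% and 51.2%. Most groups overlapped once the difference between sections was considered. Among the 14 tested groups striatum stood apart by its values, as its lower value exceeded the highest other value of 60.3%. Its counting intervals still overlapped those of some groups, such as thalamus in section 2 (58.7 to 61.8) and CA1 in section 1 (53.6 to 58.4). The midbrain dopamine area, too small for the tests, had 52.4% and 61.1%. The share is a score over the members and was given no test. It covers the 3 beta subunit genes named here.

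**Figure D3:**
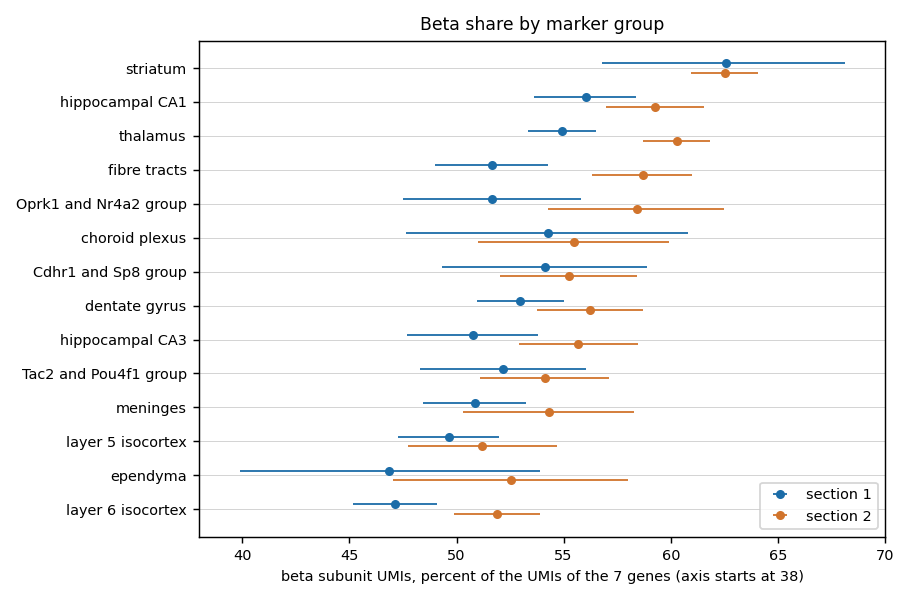
Beta share, the UMIs of 3 beta subunit genes as a percent of the UMIs of all 7 genes, for 14 marker groups ordered by their mean, with section 1 in blue and section 2 in orange and bars for exact binomial 95% intervals (counting error only). Striatum lies at 62.6% and 62.5%, right of the other groups, and 13 of 14 groups lie further right in section 2.

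The striatal position rested on Scn4b. Without Scn4b the share in striatum was 55.5% and 54.4%, CA1 had 54.8% and 57.8% and thalamus 51.9% and 57.7%, so striatum no longer stood apart. Scn4b made up 25.5% and 28.6% of beta UMIs in striatum, against 4.50% and 5.80% in dentate gyrus.

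The make-up of each class also differed between groups. Scn3b supplied 45.1% and 44.5% of beta UMIs in dentate gyrus and 45.0% and 41.5% in CA1, against 13.6% and 14.98% in thalamus. Scn2b supplied 75.0% and 74.8% in thalamus and 50.4% and 49.7% in dentate gyrus. Of alpha UMIs, Scn2a supplied 46.6% and 44.4% in layer 6 and 29.5% and 28.5% in thalamus, where Scn8a supplied 48.7% and 58.6%. Scn3a was 12.9% and 12.6% of alpha UMIs in dentate gyrus and 5.19% and 4.88% in thalamus. Scn1a was 16.6% and 8.09% in thalamus, which carries the section difference.

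**Figure D4:**
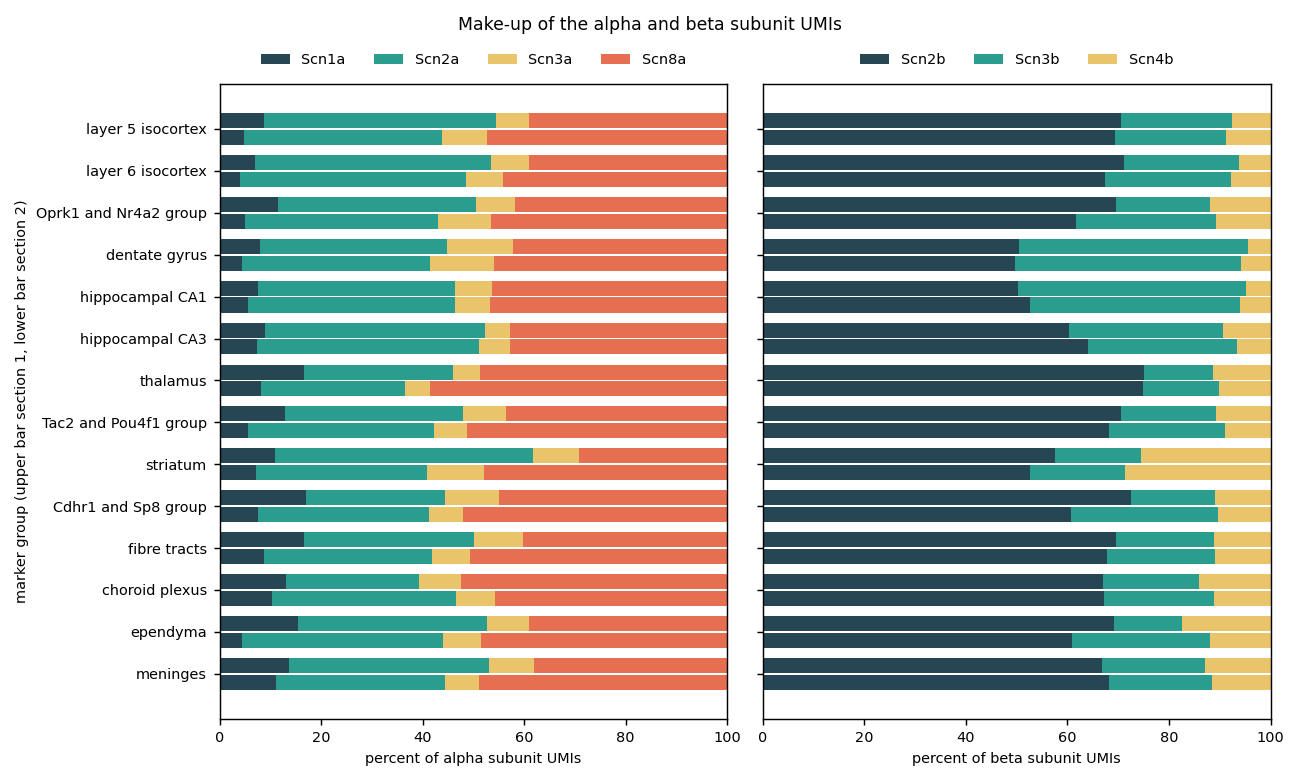
Share of each gene in the alpha subunit UMIs (left) and in the beta subunit UMIs (right), in percent, for 14 marker groups, with the upper bar for section 1 and the lower for section 2. Scn3b takes 41.5% to 45.1% of beta UMIs in dentate gyrus and CA1, and Scn4b 25.5% and 28.6% in striatum.

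Within the hippocampal formation 4 members differed between CA3 and dentate gyrus, 2 higher in CA3, where 4.68% of all genes were higher, and 2 lower, where 4.43% were lower. Scn3a had 18.5 and 19.9 CPM in CA3, against 44.8 and 41.1 in dentate gyrus (log2 -1.12 ± 0.20, adjusted p 7.91e-05, edgeR). Scn3b was lower in CA3 than in dentate gyrus (log2 -0.59 ± 0.14, adjusted p 0.00211, edgeR). This was not called with the section 1 sums (log2 -0.58) or the section 2 sums (log2 -0.56) left out, or without the block (adjusted p 0.284). Scn2b (log2 0.32) and Scn4b (log2 0.63) were higher in CA3, but both directions turned under pan-neuronal scaling, to -0.32 and -0.01. Scn2b was not called with either section's sums left out (log2 0.38 without section 1 and 0.27 without section 2), nor Scn4b without section 1 (log2 0.19). Of 14 alternatives the Scn2b call held in 7 and the Scn4b call in only 4, being lost with DESeq2 and without TMM factors among others. The pan-neuronal list itself stood at 9339 and 9091 CPM in CA3, against 5977 and 6094 in dentate gyrus. Between CA1 and CA3, with 1.2% of all genes called higher, 1 member passed: Scn3b was 1.72-fold higher in CA1 (log2 0.78 ± 0.14, adjusted p 1.40e-04, edgeR). It was not called without the section 1 sums (log2 0.70) or without the block (adjusted p 0.262).

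The groups defined by myelin, meningeal, choroid plexus and ependymal markers held lower levels of several members. Scn3b was lower in fibre tracts (41.5 and 55.9 CPM, log2 -0.67 ± 0.11), in meninges (45.5 and 55.8, log2 -0.70 ± 0.13) and in choroid plexus (42.2 and 53.8, log2 -0.67 ± 0.18). Scn2a was lower in fibre tracts (log2 -0.66) and choroid plexus (log2 -0.64), and in meninges (log2 -0.39), where the value was 0.03 under pan-neuronal scaling. Scn8a was lower in fibre tracts (log2 -0.49), meninges (-0.46) and choroid plexus (-0.39), and none of these was called under pan-neuronal scaling (log2 -0.09, -0.05 and -0.08 in the same order). Scn2b was lower in ependyma (log2 -0.51), meninges (-0.39), choroid plexus (-0.36) and fibre tracts (-0.32), and the meningeal and fibre tract values became 0.01 and 0.08 under pan-neuronal scaling. Scn3a was lower in fibre tracts (log2 -0.36), the direction of which turned to 0.04 under that scaling. Not called under that scaling either were Scn2b in choroid plexus (log2 -0.05) and ependyma (-0.27), Scn3b in meninges (-0.29) and choroid plexus (-0.38), and Scn2a in choroid plexus (-0.34). Of these 14 calls, 10 were lost without the group's section 1 sum, with log2 values of -0.67 to -0.24, and 4 without its section 2 sum (log2 -0.71 to -0.17). The calls for Scn2a, Scn8a and Scn3b in fibre tracts and for Scn3b in meninges held both times. Beside these values, pan-neuronal genes were lower for 9 of 10 in fibre tracts and in meninges and for 7 of 10 in choroid plexus. Astrocyte markers were higher for 6 of 6 in meninges and 5 of 6 in fibre tracts, and red blood cell markers for 5 of 5 in both. Microglia markers were higher for 4 of 5 in meninges and 5 of 5 in fibre tracts, endothelial markers for 5 of 5 and 3 of 5, and oligodendrocyte precursor markers for 2 of 4 and 3 of 4. The share of all genes called higher in fibre tracts or meninges is not given here, so these counts of higher markers have no background beside them. The summed pan-neuronal level was 4818 and 5603 CPM in meninges and 4447 and 5633 CPM in choroid plexus, and none of its genes was at 0 in any tested group. The part of these cell types in the subunit levels was not tested. Scn1a (log2 0.02 to 0.04 in fibre tracts, choroid plexus and meninges) and Scn4b were not called in any of these groups. Under pan-neuronal scaling, however, Scn1a was called higher in fibre tracts (log2 0.44) and meninges (log2 0.46), and without TMM factors Scn4b was called lower in fibre tracts (log2 -0.37).

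Some groups were too small for the tests above. Superficial isocortex, with 84 and 19 spots, had 171 and 127 CPM of Scn2a and 21.7 and 18.8 of Scn4b. Groups of 15 or more spots on both sections were added to the fit after the values were seen, and superficial isocortex then had 1 member higher, Scn2a (log2 0.59 ± 0.11), and 1 lower, Scn4b (log2 -0.72 ± 0.18), against a background of 16.1%. In that fit no member was called between superficial isocortex and layer 6 (Scn2a log2 -0.06), where 2.53% of all genes passed. Thalamus differed from superficial isocortex in 6 members where 21.1% of all genes passed. Scn4b (log2 1.04), Scn1a (0.71) and Scn2b (0.41) were higher in thalamus, and Scn3a (-0.87), Scn2a (-0.82) and Scn3b (-0.67) were lower. Striatum differed from superficial isocortex in Scn4b, 6.74-fold higher, with 8.61% of all genes called. Fibre tracts were lower than superficial isocortex in 5 members (background 32.1%), Scn2a by the most (log2 -1.15). The area of midbrain dopamine markers, with 116 and 16 spots, had Scn1a higher (log2 0.55) and Scn2a lower (-0.85), where 6.24% of genes passed. The group of other midbrain and hindbrain markers, with 95 and 24 spots, had Scn4b higher (56.1 and 47.8 CPM, log2 0.74) and Scn2a (-0.52) and Scn3b (-0.60) lower, where 6.35% passed. Hypothalamus, with 26 and 121 spots, had 112 and 103 CPM of Scn8a. In the added fit Scn8a was the 1 member called there, lower than in the other groups (log2 -0.37 ± 0.11, adjusted p 0.0494, edgeR), where 4.56% of genes passed. This depended on the setting. With no margin over the second list Scn8a was not called in hypothalamus (log2 -0.27, adjusted p 0.0582, edgeR). Scn4b was called lower there instead (log2 -0.42, adjusted p 0.0406, edgeR), where 6.17% of genes passed. Cerebellar cortex had 125 spots in section 1 and 1 in section 2 and is described for section 1: 248 CPM of Scn2b, 130 of Scn8a, 119 of Scn2a, 46.7 of Scn3b, 36.8 of Scn4b, 29.8 of Scn1a and 20.9 of Scn3a.

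Other genes of the sodium channel pathway were counted from lists. The fibroblast growth factor homologous factors bind the tail of the alpha subunit. Of 4 tested, 2 were higher in thalamus, Fgf12 (log2 0.49 ± 0.07) and Fgf13 (0.47 ± 0.08), and 1 lower, Fgf11 (-0.72 ± 0.15), with a list median of 0.19 beside -0.02 for all genes. In striatum Fgf14 (0.69 ± 0.18) and Fgf11 (0.51 ± 0.17) were higher and Fgf13 lower (-0.38 ± 0.12), and in dentate gyrus Fgf13 was higher (0.86 ± 0.09) with Fgf12 (-0.39 ± 0.10) and Fgf11 (-0.53 ± 0.18) lower.

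Genes that anchor channels at the initial segment and node numbered 8, all tested. In thalamus 5 were higher and 1 lower, with Nfasc, a cell adhesion molecule of both sites, at log2 0.41 ± 0.07 and Trim46, which organises microtubules of the initial segment, at -0.29 ± 0.09. In striatum 4 were higher and none lower, including Trim46 (0.55 ± 0.11) and Sptbn4, the spectrin of initial segments and nodes (0.35 ± 0.09). In fibre tracts 3 were higher, led by Cntn2 (1.66 ± 0.07) and Nfasc (0.96 ± 0.07). A further 5 were lower (background 13.9%), with Trim46 at -0.63 ± 0.11, and no background is given for the higher calls. Both Cntn2 and Nfasc are also made by oligodendrocytes.

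Of 9 genes typical of fast-firing neurons, 6 were higher and 1 lower in thalamus, with a median of 0.55 on the log2 scale beside -0.02 for all genes. Nefh, a neurofilament chain of large axons, was at log2 1.38 ± 0.09, and the potassium channel gene Kcnc1 at 0.73 ± 0.07, while Syt2, a synaptic vesicle calcium sensor, was lower (-0.51 ± 0.11). In dentate gyrus 5 of the 9 were lower, including Pvalb (-0.89 ± 0.17) and Nefh (-0.72 ± 0.14), and in layer 6 there were 6 lower, including Syt2 (-0.66 ± 0.13). Parvalbumin itself, encoded by Pvalb, was not called in thalamus (log2 0.05 ± 0.14). The GABAergic markers were 3 of 3 lower in thalamus, with Slc32a1 at -0.95 ± 0.10, and 3 of 3 higher in striatum, with Slc32a1 at 1.02 ± 0.10. Their summed level was 1122 and 1089 CPM in striatum and 274 and 459 in thalamus. The glutamate transporter gene Slc17a6 was higher in thalamus (1.67 ± 0.09) and, with Slc17a7 (-1.11 ± 0.12), lower in striatum (-0.53 ± 0.17).

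For each member genes with a similar level across the 14 groups were ranked among 5300 genes by the lower of the Pearson correlations within each section. These are descriptions over 14 groups that share libraries and depth. For Scn4b they were Rasgrp2, Adcy5 and Rasd2 and for Scn3b Chst1 and Prrt1. For Scn2b they were Eno2, Gabbr1 and Ndrg4. Scn2a was closest to B4galnt1 (r 0.884 and 0.888), Ensa and Arf3. Scn8a was close to Spin1 and Rgs7, Scn3a to Pitpnm2, Sowaha and Pkia, and Scn1a to Zfp385a (r 0.782 and 0.693), Pygm and Rufy3. Among the members themselves Scn2a and Scn3b had r values above 0.6 in both sections (r 0.652 and 0.686), and Scn8a with Scn2b had 0.541 and 0.771. Scn1a ran opposite to Scn3a (r -0.39 and -0.39).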

How the data were processed

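Gene counts were measured with 10x Visium in 2 sections, analysed as replicates 1 and 2 of 1 group. The deposited matrices hold raw UMI counts per gene and spot, made by the authors with Space Ranger 1.2.2 (section 1) and 2.0.1 (section 2) per the file headers. The submitters' processing notes name version 2.0.1 and mm10 for both. Which gene annotation was used is not stated there. The members and gene lists were chosen with earlier results of these data known.

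Spots with at least 500 UMIs were kept. Each spot was scored as the mean z, clipped at 5, of log counts per 10000 UMIs over each marker list, and was assigned where the top score was at least 0.5 and at least 0.25 above the next. Of 134 markers 132 were detected in at least 0.5% of spots and used. UMIs were summed per group and section, and markers were left out of the tests. Tests used edgeR 4.0.16 (R 4.3.3) with TMM and filterByExpr, section as a block, quasi-likelihood F tests and Benjamini-Hochberg adjustment over 12666 genes at 0.05. Regions of 1 section are the same tissue, and the section deviations of pairs of groups correlated by at least 0.238 (median 0.472). Kept UMIs were 58643229 and 55850965. Intervals are at 95% and cover counting error only. On simulated data for the thalamus contrast over 12666 genes, 90% of 2-fold and 66% of 1.41-fold changes were recovered and 7.69% of calls were false. Apart from the changed genes, each gene had the same level in all groups there, with no section effect and independent sums. Thalamus also had the largest sums, so these rates need not hold for smaller groups or for the measured data. All members were named in each comparison, with up to 3 similar genes per member and up to 3 called genes of each sign per described list. Cell type lists beyond those in the text were the astrocyte, oligodendrocyte precursor, microglia, endothelial and red blood cell markers. Planned pairs with superficial isocortex had too few spots in section 2 and were fitted in an added setting with at least 15 spots. Alternatives included DESeq2 1.42.0, other scalings, filters, spot limits, margins, Leiden clusters and left-out sums. Some genes of the lists and rankings are not reported here.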

Additional observations from a re-analysis of the deposited data

Results flagged for a closer look

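A few UMIs of the members lay outside the spots used. The 137 spots of section 1 with under 500 UMIs, 19642 UMIs in all, held 5 UMIs of Scn2b, above the flagging limit of 3. Scn2a and Scn8a had 3 each, Scn1a and Scn4b 1 each and Scn3a and Scn3b 0. The limit only tells a count from absence. Scn2b had 213 CPM in the kept spots of section 1, and a difference from that level was not tested. The 2 such spots of section 2 held none of the members.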

How the results depend on the processing

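All 7 members differed among the groups in the main analysis and in most alternatives, but 6 did without the replicate block or without the thalamic sum of section 1, and 4 did when every sum was thinned to the smallest, which lowers depth. The 16 higher and 21 lower member and group calls became 16 and 17 with DESeq2, 5 and 3 with thinned sums, 11 and 13 without the replicate block, 13 and 12 with a margin of 0.5 (of 49 comparisons, since fewer groups kept enough spots), 12 and 7 without replicate 1 and 14 and 15 without replicate 2. With Leiden clusters in place of marker groups they were 22 and 25 of 84, over the 12 of 18 clusters that could be tested. The share of all genes called with those clusters is not given here, so these counts have no background and are not stronger support. The 5 calls between pairs became 3 without TMM factors, 9 scaled to pan-neuronal genes, 1 without the replicate block, 1 with thinned sums, 3 with no margin, 1 without replicate 1 and 3 without replicate 2. The median beta share of 54.2% was 51.5% without Scn4b, 55.6% without replicate 1 and 51.9% without replicate 2. Leaving out a sum assumes that the lone sum varies like the other groups.

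Scaling to pan-neuronal genes turned these log2 values against the other groups: Scn8a in thalamus (-0.068) and CA3 (-0.24), Scn4b in thalamus (-0.00027), Scn3a (0.039) and Scn2b (0.077) in fibre tracts, Scn2a (0.029) and Scn2b (0.0092) in meninges, Scn3b in layer 6 (-0.29) and Scn2b in CA3 (-0.26). Between CA3 and dentate gyrus it turned Scn2a (-0.32), Scn8a (-0.60), Scn2b (-0.32) and Scn4b (-0.0098), and between CA1 and CA3 Scn2b (0.37). Thinned sums turned Scn4b in thalamus (-0.10). Of the 42 calls, 25 held without the replicate block, 37 with DESeq2, 21 with pan-neuronal scaling and 8 with thinned sums. Beyond the losses named with the results, the block also carried Scn4b in CA1 and Scn2b and Scn4b between CA3 and dentate gyrus. The same held for Scn3a in fibre tracts, Scn8a and Scn3b in choroid plexus and Scn2a in meninges. Beyond the scaling itself the cause was not tested.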
